A study of Homo sapiens with 4 samples.

Results

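A set of 10 genes of the inflammasome and pyroptosis pathway was followed in HCC1954 cells, a HER2-amplified human breast cancer line in which the palmitoyltransferase gene ZDHHC15 was knocked down. They were taken by symbol from the table of 58735 genes: the sensors AIM2 and NLRP1, the adaptor PYCARD, the inflammatory caspases CASP1, CASP4 and CASP5, the gasdermins GSDMB, GSDMD and GSDME, and the cytokine IL18. All 10 were found, and 8 of them had enough reads to be tested, the exceptions being CASP5 and PYCARD. RNA-seq was run on 2 samples that received scrambled short hairpin RNA (shCON) and 2 that received short hairpin RNA targeting ZDHHC15 (shZDHHC15), both from GIPZ vectors, in one line and one medium. The labels call the knockdown stable in one place and describe a transient transfection with harvest after 36 h in another. They do not say whether the paired numbers are repeat cultures, different hairpins or clones, so the p-values measure only the spread between these samples. Effects of the hairpin RNA on other transcripts, and any difference between clones, cannot be told apart from those of losing ZDHHC15. The paper describes a screen of monoclonal cultures by western blot, and does not say whether the sequenced cells were clones.

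Inflammasomes are cytosolic complexes that turn a danger signal into protease activity. A sensor such as AIM2, which binds double-stranded DNA, or NLRP1, which senses pathogen proteases and other stresses, recruits procaspase-1, usually through the adaptor ASC encoded by PYCARD. Caspase-1 matures IL-1β and IL-18 and cleaves gasdermin D, whose N-terminal part forms pores in the plasma membrane, and caspase-4 and caspase-5 cleave gasdermin D on binding bacterial lipopolysaccharide. Gasdermin E is opened by an apoptotic caspase, and gasdermin B by granzyme A or caspases. The pathway is best known from macrophages, while epithelial cells hold a part of it.

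Total counts on genes lay between 17560982 and 19118704 per sample, so that a count of 0 allows up to 3 counts, or 0.153 to 0.178 CPM, a limit that covers counting error only. CPM are counts scaled to a library total of 1e6, with TMM factors that correct for differences in library composition. ZDHHC15 received 17617 and 15716 counts in shCON cells and 0 in each shZDHHC15 sample, at least 5890-fold lower against the floor of 3 counts. All 8 epithelial and HER2 markers were tested, and 6 were lower in shZDHHC15 cells, KRT8 by the most (-1.62 on the log2 scale), and KRT19 was higher. CDH1 was not called (-0.05, edgeR adjusted p = 0.706). Over all tested genes 20.3% were lower and 21.7% higher. The summed level of these markers was between 19470 and 21000 CPM in shCON and between 11740 and 11960 CPM in shZDHHC15 cells. Keratins led this fall, with mean CPM in shCON and shZDHHC15 cells of 6058 and 1969 for KRT8. For KRT7 these were 3109 and 1569, for KRT18 1642 and 548, and for ERBB2 5760 and 4876. Of 15 leukocyte markers 13 were too low to be tested and 6 had no counts in any sample, the T-cell gene CD3E among them. CD14 was higher and CSF1R lower. CD14 held 9 and 5 counts in shCON and 25 and 22 in shZDHHC15 cells. It could be tested only through the shZDHHC15 samples, so its call is no independent support for a difference. The list summed to 10.2 and 12.1 CPM in shCON and to 6.39 and 7.54 CPM in shZDHHC15 cells. CSF1R alone held 8.39 and 10.5 CPM of this in shCON and 3.65 and 5.35 CPM in shZDHHC15 cells. The 8 stromal and endothelial markers summed to 54.2 and 57.2 CPM in shCON and to 113 and 105 CPM in shZDHHC15 cells. Only 3 of them, COL1A1, PECAM1 and CDH5, were tested, and these were higher. The other 5 were too low to be tested, and LUM had no counts. CDH5 had a mean of 45.25 CPM in shCON and 70.75 CPM in shZDHHC15 cells, and PECAM1 of 3.72 and 28.2 CPM. The part that these marker differences have in the results was not tested. In bulk RNA, fewer cells with a transcript and less of it per cell cannot be told apart.

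The groups were compared over 15817 genes with the quasi-likelihood test of edgeR, and a gene was called at a Benjamini-Hochberg adjusted p under 0.05. Of the 8 tested genes, AIM2 and CASP1 were called higher and NLRP1 and IL18 lower in shZDHHC15 cells, which is 25% in each direction. Over all genes tested 21.7% were called higher and 20.3% lower, so the share of these genes that moved was near that of the whole table. The median log2 fold change was -0.0068 over the 8 genes and 0.015 over all genes. Where samples of the groups are said not to overlap, this is a description. With 2 against 2 samples, full separation in either direction has a probability of 0.333 without any difference. 

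**Figure D1:**
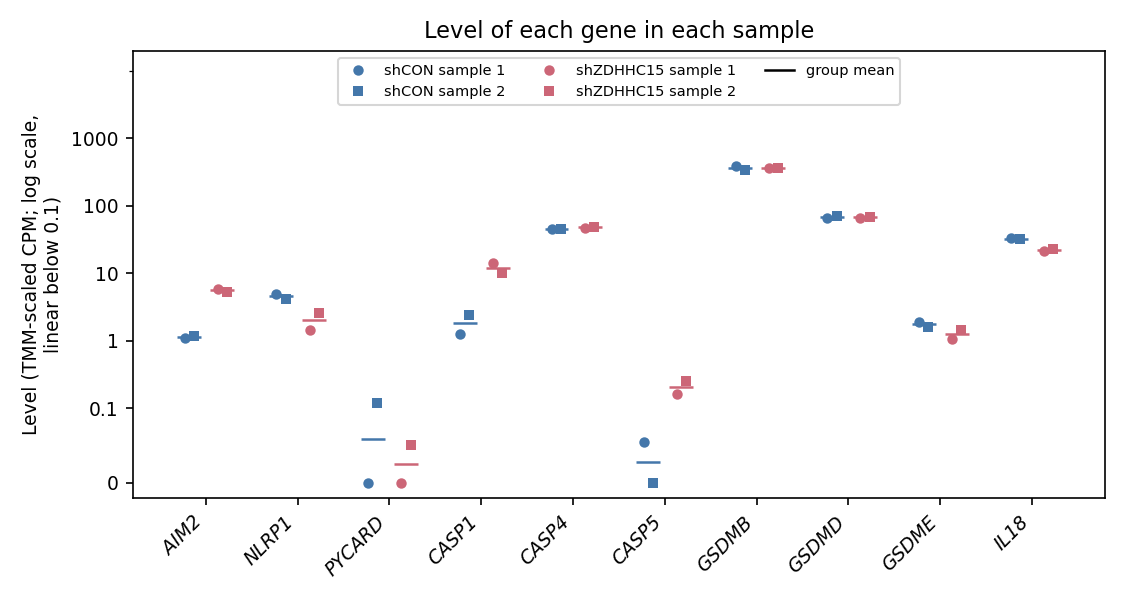
Level of the 10 genes in each of the 4 samples, as TMM-scaled CPM on a log axis that is linear below 0.1; points are samples and short lines are group means. AIM2 and CASP1 lie higher in both shZDHHC15 samples, NLRP1 and IL18 lower, GSDMB and GSDMD overlap between groups, and CASP5 and PYCARD stay below 0.3 CPM.

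AIM2 (ENSG00000163568, GRCh38, chromosome 1, 159062484 to 159147096, minus strand) encodes the DNA sensor of the pathway. The shCON samples held 20 and 20 counts of it and the shZDHHC15 samples 110 and 102. Both shZDHHC15 samples thus lay well above both controls, and the samples of each group were close to each other. Its level rose from 1.14 ± 0.0627 to 5.55 ± 0.503 CPM (SD, n = 2; log2 fold change, log2FC, 2.28, SE 0.285, edgeR adjusted p = 1.9e-05). The second sensor moved the other way. NLRP1 (ENSG00000091592, chromosome 17, 5499427 to 5619424, minus strand) received 90 and 70 counts in shCON and 27 and 51 counts in shZDHHC15 cells. The groups did not overlap, and the shZDHHC15 samples stood apart from each other at 1.45 and 2.60 CPM. NLRP1 fell by 1.16 in log2FC (SE 0.291, adjusted p = 0.00512), from 4.54 ± 0.556 to 2.02 ± 0.812 CPM (SD, n = 2). Without shZDHHC15 replicate 1, which had 27 counts, the log2 fold change was -0.81 and the call was lost (adjusted p = 0.054). Per kilobase of the deposited gene length, the level of AIM2 was 1.42 and 1.82 times that of NLRP1 in the shCON samples and 26.0 and 12.8 times in the shZDHHC15 samples. These lengths, 2009 bases for AIM2 and 12808 for NLRP1, count all annotated exons, so NLRP1 may be understated. In CPM, NLRP1 was the higher of the 2 in shCON cells and AIM2 in shZDHHC15 cells.

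PYCARD (ENSG00000103490, chromosome 16, 31201485 to 31203450, minus strand), which encodes the adaptor ASC that links pyrin-domain sensors to caspase-1, was at the detection limit. It received 0 and 2 counts in shCON and 0 and 1 in shZDHHC15 cells, at or under the floor of 3 counts in each sample. No difference was detectable at this depth, and no fold is given. The antisense gene PYCARD-AS1 covers 59.7% of the exon bases of PYCARD, and the sources used here do not state whether counting used the strand, so even these few reads could not be assigned to PYCARD with certainty.

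The inflammatory caspase genes CASP1, CASP4 and CASP5 lie side by side on chromosome 11 on the minus strand. CASP1 (ENSG00000137752, 105025443 to 105035250), the effector protease of the canonical inflammasome, received 23 and 40 counts in shCON cells and 261 and 198 counts in shZDHHC15 cells. The lower shZDHHC15 sample was several times above the higher control. CASP1 rose from 1.82 ± 0.785 to 12.1 ± 2.78 CPM (SD, n = 2; log2FC 2.74, SE 0.276, adjusted p = 2.27e-06). Fits to 3 of the 4 samples gave log2FC between 2.31 and 3.23. CASP4 (ENSG00000196954, 104942866 to 104969436), a cytosolic receptor for lipopolysaccharide, was the most abundant of the 3 caspases and received 837 and 768 counts in shCON and 877 and 969 counts in shZDHHC15 cells. Its levels of 45.7 ± 0.269 and 48.2 ± 1.60 CPM (SD, n = 2) gave a log2 fold change of 0.08 (95% interval -0.15 to 0.30, adjusted p = 0.593). CASP5 (ENSG00000137757, 104994235 to 105023168), its close paralog, received 1 and 0 counts in shCON and 3 and 5 counts in shZDHHC15 cells. The ratio of its summed counts was 7.34, with an exact 95% binomial interval of 0.984 to 326 for counting error alone, so a difference was not detectable at this depth. Without a filter on low counts its adjusted p was 0.237.

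Per kilobase, CASP1 made up 5.09% and 9.27% of the summed level of CASP1, CASP4 and CASP5 in the shCON samples and 36.5% and 28.1% in the shZDHHC15 samples. CASP4 exceeded CASP1 by 18.5 and 9.79 times in shCON and by 1.71 and 2.49 times in shZDHHC15 cells, and so remained the more abundant transcript in each sample. No test of these shares and ratios was run, and they are given as a description of the 4 samples. Gene lengths count all annotated exons of a gene, so a gene with rarely used long isoforms is understated.

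**Figure D2:**
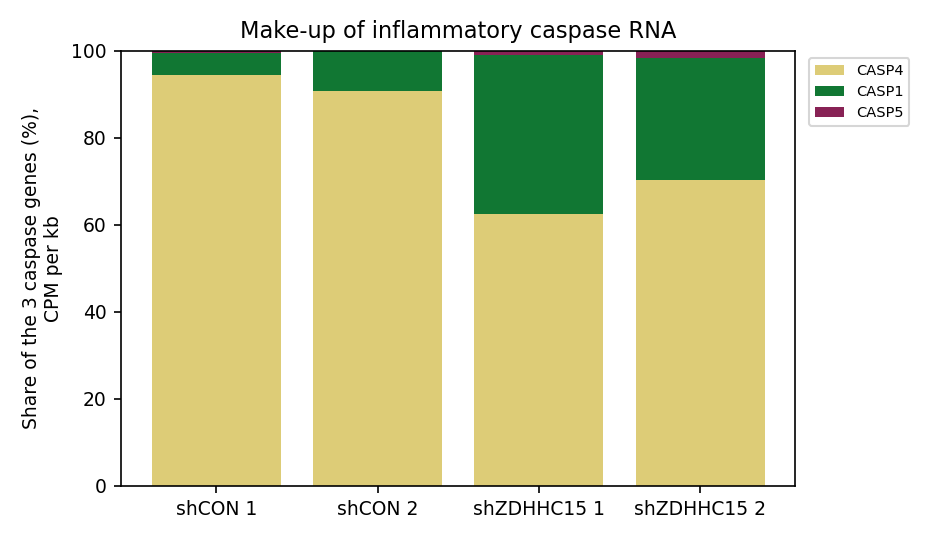
Share of CASP4, CASP1 and CASP5 in the summed level of the 3 genes (percent of CPM per kb of gene length) in each sample. The CASP1 share is 5.09% and 9.27% in the shCON samples and 36.5% and 28.1% in the shZDHHC15 samples, with CASP4 as the larger part in each.

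Beside CASP1 stand CARD16 and CARD17, which encode proteins made mainly of a caspase recruitment domain like that of caspase-1, without the protease, and which are known as decoys that can bind caspase-1. CARD16 received 7 and 10 counts in shCON and 38 and 33 in shZDHHC15 cells with a log2FC of 1.92 (SE 0.433, adjusted p = 0.00247). CARD17 had 2 and 1 counts in shCON and 16 and 26 in shZDHHC15 cells, a ratio of 12.8 with an exact 95% binomial interval of 4.11 to 64.8 for counting error alone. Both genes passed the filter on low counts only through the shZDHHC15 samples, where they were high, so their calls are no independent support for a difference. Under a filter of 10 or more counts in each sample, neither was tested. In the transcripts compared, all 330 coding bases of CARD17 and 389 of the 591 of CARD16 align to the coding sequence of CASP1. Sequences are shown here because reads could be shared between the 3 genes. The lines give coding bases 8 to 97 in GENCODE release 29 transcripts on GRCh38, all on the minus strand, at chr11:105034385-105034474 for CASP1, chr11:105044569-105044658 for CARD16 and chr11:105100690-105100779 for CARD17. Capitals mark the 8 positions at which the 3 genes differ.
CASP1: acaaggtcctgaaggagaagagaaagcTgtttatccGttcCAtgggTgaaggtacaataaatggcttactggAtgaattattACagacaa
CARD16: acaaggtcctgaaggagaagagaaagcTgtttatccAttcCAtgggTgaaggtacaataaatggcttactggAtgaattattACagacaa
CARD17: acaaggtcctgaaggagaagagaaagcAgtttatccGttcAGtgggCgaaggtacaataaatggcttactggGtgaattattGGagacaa
In this stretch CARD16 differs from CASP1 at 1 of 90 bases and CARD17 at 7. Over the aligned coding bases, CARD16 is identical to CASP1 at 374 of 389 bases (96.1%) and CARD17 at 300 of 330 (90.9%). Of the 4314 distinct 75-base windows in CASP1 transcripts, 102 (2.4%) also occur in CARD16, and none was found in CARD17. Shared windows are thus a small part of CASP1, and a larger part of CARD16 (6.0% of its windows), whose counts are the lower.

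Within 2 Mb of CASP1, measured between the lower coordinates of the genes, 15 protein-coding genes are annotated and 9 were tested, of which 5 were called higher (CASP1, CARD16, CARD17, DYNC2H1 and GUCY1A2) and 1, DCUN1D5, lower. CARD16 and CARD17 are in this count although they passed the filter only through the shZDHHC15 samples. CASP1 itself is in it as well, and over all tested genes 21.7% were called higher and 20.3% lower. CARD18, which encodes a further caspase-1 decoy, and CASP12, annotated as a polymorphic pseudogene, had no counts in any sample. YAP1, the gene of the transcriptional cofactor that the study examined, lies 2.91 Mb away on the same chromosome and fell by 2.81 in log2FC (SE 0.105, adjusted p = 4.3e-11). IL18 lies 7.12 Mb from CASP1.

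**Figure D3:**
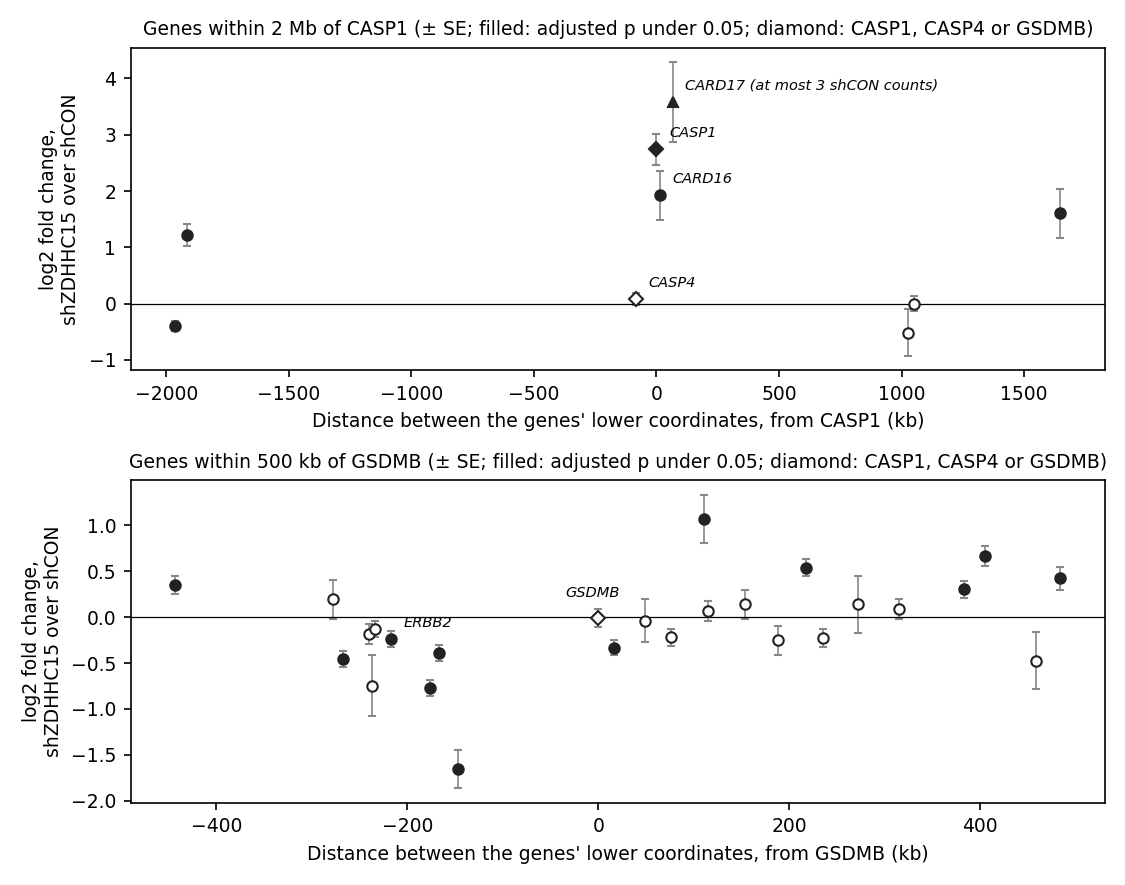
Log2 fold change (± SE) of tested protein-coding genes against their distance in kb from CASP1 (upper) and GSDMB (lower); filled symbols have an adjusted p under 0.05 and diamonds are CASP1, CASP4 or GSDMB. CASP1 and CARD16 lie at 2.74 and 1.92 while CASP4 beside them is at 0.08, and GSDMB lies at -0.0086 between called neighbours in both directions.

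The gasdermins are the pore-forming proteins at the end of the pathway, and none of the 3 genes was called. GSDMB (ENSG00000073605, chromosome 17, 39904595 to 39919854, minus strand) was the most abundant of the 10 genes per kilobase, and received 7154 and 5682 counts in shCON and 6824 and 7037 counts in shZDHHC15 cells. Its samples overlapped between groups at 364.6 ± 39.3 and 362.5 ± 5.66 CPM (SD, n = 2), with a log2 fold change of -0.0086 (95% interval -0.21 to 0.19, adjusted p = 0.953). GSDMD (ENSG00000104518, chromosome 8, 143553207 to 143563062, plus strand), which encodes the main pore former below caspase-1 and caspase-4, received 1184 and 1209 counts in shCON and 1241 and 1363 counts in shZDHHC15 cells. Its levels were 68.3 ± 4.76 and 68.1 ± 1.97 CPM (SD, n = 2), with a log2 fold change of -0.0050 (95% interval -0.22 to 0.21, adjusted p = 0.976).

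GSDME (ENSG00000105928, chromosome 7, 24698351 to 24758113, minus strand), the gasdermin opened in apoptotic cells, was low. It received 35 and 27 counts in shCON and 20 and 28 counts in shZDHHC15 cells. Scaled to depth, both shZDHHC15 samples lay below both controls, at 1.25 ± 0.249 against 1.76 ± 0.226 CPM (SD, n = 2). The log2 fold change of -0.49 had a 95% interval of -1.24 to 0.26 and was not called (adjusted p = 0.285). Per kilobase, GSDMB made up between 80.1% and 83.7% of the gasdermin transcripts of the 3 genes in each of the 4 samples, GSDMD between 16.0% and 19.7%, and GSDME less than 0.3%.

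GSDMB lies 217 kb from ERBB2, the amplified oncogene of this line. Within 500 kb of GSDMB, 26 of 29 protein-coding genes were tested, GSDMB included, and their median log2 fold change was -0.085. Of these, 6 were called higher and 6 lower, beside 21.7% and 20.3% of all tested genes. ERBB2 itself was at 5760 ± 240.5 and 4876 ± 225 CPM (SD, n = 2), with log2FC -0.24 (adjusted p = 0.0332), and was called in 7 of 13 alternative analyses.

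IL18 (ENSG00000150782, chromosome 11, 112143251 to 112164117, minus strand) encodes a cytokine that epithelial cells hold as a precursor and that caspase-1 matures. It received 609 and 539 counts in shCON and 404 and 451 counts in shZDHHC15 cells. Both shZDHHC15 samples lay below both controls, and the samples within a group were close. IL18 fell from 32.7 ± 1.03 to 22.3 ± 0.904 CPM (SD, n = 2; log2FC -0.55, SE 0.12, adjusted p = 0.00204), and the call held in all 13 alternative analyses. IL18BP, the soluble inhibitor of IL-18, received 140 and 120 counts in shCON and 181 and 198 counts in shZDHHC15 cells, with a log2 fold change of 0.42 (95% interval 0.053 to 0.79) that did not pass the adjusted p (0.0631). NUMA1 overlaps 15.6% of the exon bases of IL18BP on the opposite strand.

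**Figure D4:**
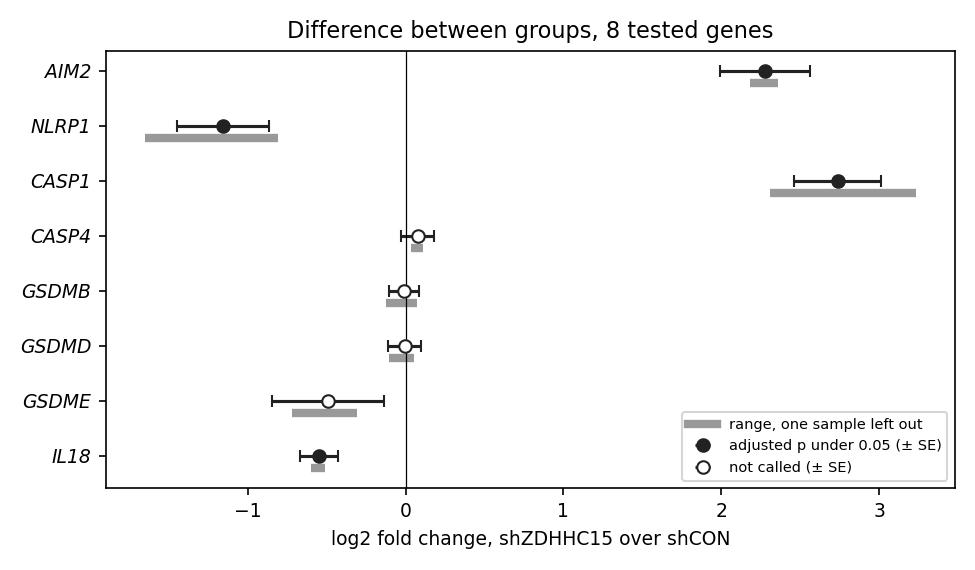
Log2 fold change, shZDHHC15 over shCON, of the 8 tested genes (points, ± standard error) with the range obtained when one sample at a time is left out (grey bars). AIM2 (2.28) and CASP1 (2.74) are higher, NLRP1 (-1.16) and IL18 (-0.55) are lower, and the open points of CASP4, GSDMB, GSDMD and GSDME were not called.

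Other genes of the pathway and genes linked to it were followed through 6 lists of 53 genes. Of these, 52 were matched by symbol and 37 were tested. In shZDHHC15 cells 21 were called higher and 4 lower, or 56.8% and 10.8%, beside 21.7% and 20.3% of all genes. Of the 21, 5 are apoptotic caspases and 7 transcription factors, and of the 4 lower, 1 is a transcription factor. The median log2 fold change of the 37 genes was 0.42. The lists were chosen with earlier results of these data known, so the shares are given as a description. CARD16 and CARD17 are among the 21, and NLRP3 is among the 4. Under a filter of 10 or more counts in each sample none of them was tested, and 19 genes were called higher and 3 lower.

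Among 11 other sensors 5 were tested, and the change of greatest size was that of NLRP3, the sensor of ion fluxes and membrane damage that is best studied in macrophages. NLRP3 received 226 and 227 counts in shCON and only 19 and 9 in shZDHHC15 cells. NLRP3 dropped from 12.9 ± 0.750 to 0.740 ± 0.397 CPM (SD, n = 2, log2FC -4.13, SE 0.284, adjusted p = 3.86e-08). NLRP3 passed the filter on low counts only through the shCON samples, where it was high. Its call is therefore no independent support for a difference, and under a filter of 10 or more counts in each sample it was not tested. Without shZDHHC15 replicate 1 its log2FC was -4.80, and without shZDHHC15 replicate 2 it was -3.66. Per kilobase, NLRP3 was at 2.72 CPM in shCON and 0.156 CPM in shZDHHC15 cells, where AIM2 was at 0.568 and 2.76. IFI16, a DNA-binding relative of AIM2, rose by 1.87 (SE 0.137, adjusted p = 7.46e-08), and MEFV, which encodes pyrin, rose by 1.87 from 12 and 17 counts to 62 and 54 (adjusted p = 7.08e-04). CARD8, which like NLRP1 is held in check by DPP9, received 279 and 224 counts in shCON and 332 and 262 in shZDHHC15 cells (log2 fold change 0.12, adjusted p = 0.593). NLRC4, the partner of the flagellin receptor NAIP, received 4 and 9 counts in shCON and 10 and 9 counts in shZDHHC15 cells and was not tested.

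Of 12 regulators and decoys 7 were tested, with 3 higher and 2 lower. NEK7, the kinase that licenses NLRP3, fell from 189 ± 25.9 to 92.7 ± 7.52 CPM (SD, n = 2; log2FC -1.03, SE 0.11, adjusted p = 4.22e-06). DPP9, the peptidase that restrains NLRP1 and CARD8, fell by 0.41 (SE 0.0927, adjusted p = 0.00267), and an antisense gene covers 18.4% of its exon bases. The DPP9 call held in 12 of 13 alternative analyses and was lost with glmTreat against a fold change of 1.2 (adjusted p = 0.0718). TXNIP, a thioredoxin-binding protein, was called higher by 0.42 (adjusted p = 0.0373), and kept this call in 9 of 13 alternative analyses. Without shZDHHC15 replicate 1 its log2 fold change was 0.12 (adjusted p = 0.649), and the call was also lost with the DESeq2 Wald test (adjusted p = 0.0648), without a filter on low counts (0.219) and with glmTreat against a fold change of 1.2 (0.162). The other 2 higher genes are CARD16 and CARD17.

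Among the other gasdermins and NINJ1, all 4 genes were tested and 2 were higher. GSDMC, another epithelial gasdermin, received 350 and 305 counts in shCON and 590 and 548 counts in shZDHHC15 cells and rose by 0.68 (SE 0.129, adjusted p = 7.47e-04). GSDMA, a gasdermin of skin epithelium, received 124 and 78 counts in shCON and 89 and 125 counts in shZDHHC15 cells and was not called (log2FC -0.04, 95% interval -0.54 to 0.46, adjusted p = 0.913). NINJ1, which ruptures the membrane after pores have formed, rose by 0.35 (SE 0.1, adjusted p = 0.0116). This call was lost without shCON replicate 1 (0.26, adjusted p = 0.0611) and without shZDHHC15 replicate 1 (0.31, adjusted p = 0.114). It was also lost without a filter on low counts (adjusted p = 0.0587) and with glmTreat (0.188), so NINJ1 was called in 9 of 13 alternative analyses.

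Of the 7 apoptotic caspases, 5 were higher and none was lower. CASP10 rose by 1.59 (SE 0.156, adjusted p = 1.71e-06) and CASP2 by 0.42 (SE 0.0987, adjusted p = 0.0032). The CASP2 call held in 12 of 13 alternative analyses and was lost with glmTreat (adjusted p = 0.0657). CASP6 passed narrowly, at 0.39 (adjusted p = 0.0465). CASP8, the initiator caspase of death receptors that can also cleave gasdermins, received 617 and 483 counts in shCON and 1093 and 1044 counts in shZDHHC15 cells and rose by 0.84 (SE 0.119, adjusted p = 6.0e-05).

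Of 9 cytokine, inhibitor and receptor genes 5 were tested, with 2 higher. IL1B, the other classical substrate of caspase-1, received 49 and 56 counts in shCON and 165 and 268 counts in shZDHHC15 cells and rose by 1.91 (SE 0.25, adjusted p = 2.84e-05), where IL18 fell. IL36G, an epithelial cytokine of the same family, rose by 1.88 (SE 0.297, adjusted p = 1.55e-04).

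Of 10 transcription factors known to induce pathway genes, 9 were tested, 7 were higher and 1, RELA, lower (log2FC -0.29, adjusted p = 0.0199). Of the interferon-signalling factors STAT2 rose by 1.90 (adjusted p = 1.66e-09) and IRF9 by 1.88 (adjusted p = 1.93e-05), although another gene covers 48.4% of the exon bases of IRF9 on the same strand. IRF8 rose by 1.79 (adjusted p = 1.41e-04). IRF2, which is known to drive GSDMD transcription, rose by 1.05 (SE 0.116, adjusted p = 5.83e-06), beside a GSDMD level that was not called. IRF1 was higher by 0.49 (SE 0.0979, adjusted p = 9.69e-04), with genes on the opposite strand over part of its exons.

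**Figure D5:**
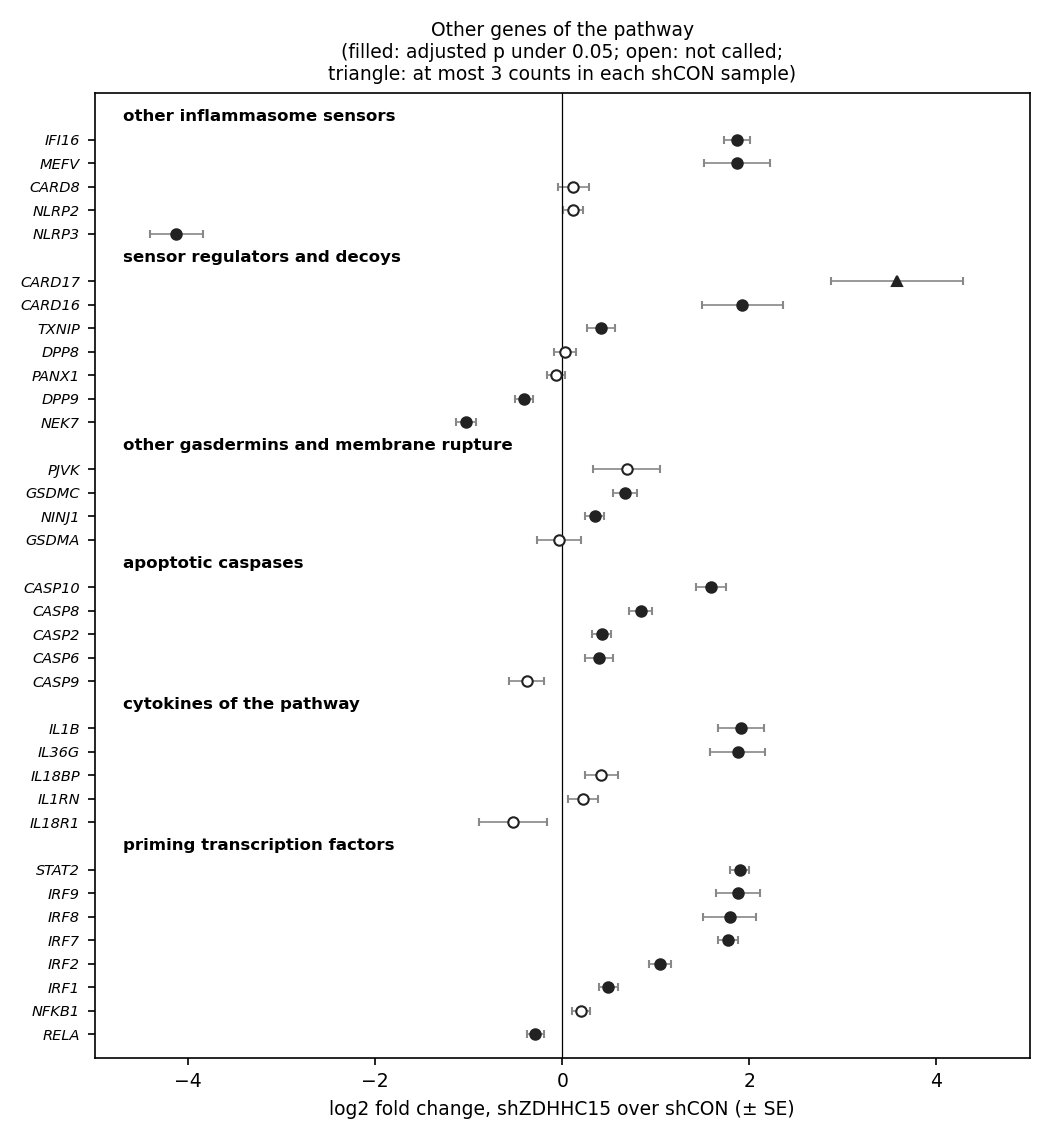
Log2 fold change, shZDHHC15 over shCON (± standard error), of tested genes named in 6 lists of other pathway and linked genes. Filled symbols have an adjusted p under 0.05. NLRP3 lies at -4.13, CASP10 at 1.59 and STAT2 at 1.90, and CARD17 is drawn as a triangle because its shCON samples hold only 2 and 1 counts.

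Promoter sequences were read for motifs of the interferon factors in the last list and of TEAD, the DNA-binding partner of YAP. RefSeq windows on GRCh38.p14, from 250 bases before to 50 after each gene's start, were matched for 5 of the 10 genes: AIM2, CASP4, CASP5, GSDME and PYCARD. Searched on both strands were the core of the interferon-stimulated response element (ISRE), GAAANNGAAA, the gamma-activated site (GAS), TTCNNNGAA, and the TEAD motif GGAATG, and these occur in 3.57%, 7.66% and 14.0% of the 35116 windows of the same length. CASP1, GSDMB, GSDMD, NLRP1 and IL18 had no window, so AIM2 was the only called gene among those searched. The ISRE core was found in AIM2 and CASP5, the GAS in CASP5 and the TEAD motif in none of the 5. With a TEAD match in 14.0% of all windows, 5 windows are too few to read its absence as a result. The upstream stretches that hold the matches are given as read on the gene's strand, with the matches in capitals. That of AIM2 stops short of an exon of another annotated AIM2 transcript. The AIM2 stretch is chr1:159076902-159077016 on the minus strand, and the CASP5 stretch is chr11:105023259-105023418 on the minus strand.
AIM2: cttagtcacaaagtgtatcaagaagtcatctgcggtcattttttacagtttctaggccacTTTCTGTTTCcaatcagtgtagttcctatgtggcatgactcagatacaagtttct
CASP5: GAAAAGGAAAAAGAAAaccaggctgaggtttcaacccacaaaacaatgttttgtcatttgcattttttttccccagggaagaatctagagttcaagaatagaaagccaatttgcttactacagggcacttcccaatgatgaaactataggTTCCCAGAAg
The AIM2 match reads on the opposite strand, from -190 to -181 relative to the start base. CASP5 holds 2 overlapping ISRE matches, from -250 to -241 and from -244 to -235, and its GAS match lies from -100 to -92. AIM2, with 1 match, received 20 and 20 counts in shCON and 110 and 102 in shZDHHC15 cells. CASP5, with the more matches, received 1 and 0 counts in shCON and 3 and 5 in shZDHHC15 cells. A link between matches and level was not tested. A match of letters is a description and not a bound site, and factor binding was not measured here.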

How the data were processed

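RNA-seq of HCC1954 cells, 2 shCON and 2 shZDHHC15 samples, was analysed from 1 table in which the authors deposited raw counts of reads per gene, not normalized. Libraries were made with the NEBNext Ultra kit. The submitters' processing notes name HISAT2, StringTie, SAMtools and hg38; the counting step, strand setting, treatment of multi-mapped reads and any versions are not given in the sources used here. All 58735 gene identifiers had the same position and symbol in GENCODE release 29 (GRCh38). Columns were assigned to samples by their titles, and 0 columns were left out.

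Genes were filtered by filterByExpr (15817 kept), scaled by TMM and tested by edgeR 4.0.16 in R 4.3.3 (glmQLFit, glmQLFTest) with Benjamini-Hochberg adjustment over all genes kept. CPM use the library sizes over these genes. The test was checked on simulated data. Within groups, the chi-square per degree of freedom over genes with at least 20 counts was 8.32 (shCON) and 6.79 (shZDHHC15), above counting noise, so samples were kept as separate replicates. Named genes are the 10 genes, ZDHHC15, up to 4 called genes per pathway list with the largest change and at least 20 counts on average in the higher group, and a fixed set of key pathway genes and neighbours. CASP5 and PYCARD are given as counts. The genes and lists were chosen with earlier results of these data known. CD14, CSF1R, CD3E, COL1A1, PECAM1, CDH5, LUM, KRT8, KRT19, GSDMA, CASP6, RELA, DYNC2H1, GUCY1A2 and DCUN1D5 were named after their values were seen. This also holds for CDH1, KRT7 and KRT18. Some genes of the lists are counted with them but not reported here by name. Alternatives were other scalings, DESeq2 1.42.0, other filters, the legacy quasi-likelihood, the replicate number as a block, glmTreat and leaving out each sample.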

Additional observations from a re-analysis of the deposited data

How the results depend on the processing

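In 13 alternative analyses of the 10 genes, 2 were called higher in each, and 2 were called lower in each but 1. Without one sample at a time, the number called lower lay between 1 and 2, the lower value being without shZDHHC15 replicate 1, where NLRP1 lost its call. GSDMB and GSDMD, which were not called in any of these analyses, changed sign with library size only (0.065 and 0.071 on the log2 scale) and with at least 10 counts in every sample (0.0026 and 0.0065). GSDMB also did so without shCON replicate 1 (0.075, against -0.126 without shCON replicate 2) and without shZDHHC15 replicate 2 (0.0016), and GSDMD without shCON replicate 2 (0.056, against -0.105 without shCON replicate 1) and without shZDHHC15 replicate 1 (0.023). CARD8 changed sign without shZDHHC15 replicate 1 (-0.10, against 0.31 without shZDHHC15 replicate 2).

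Against a fold change of 1.2 (glmTreat), 2274 genes were called higher, 1883 lower and 4157 in all, against 3427, 3217 and 6644, and 2 genes of the pathway lists lower in place of 4; this test asks for a larger change by construction. Without a filter on low counts 2282 genes were called higher, over a larger number of tests. With the replicate block, 7225 genes were called, and the same numbers of the 10 genes as without it. Deviations of equally numbered samples from their group means correlated at 0.0344, so the numbers were not taken to pair samples. When a group was left with 1 sample, that sample was assumed to vary like the other group. Genes under about 10 counts a sample, CASP5 and PYCARD here, lie below what this depth can compare.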
